A study of Caenorhabditis elegans with 2 samples.

Results

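ZTF-11 binding at isolated gene starts on the autosomes of Caenorhabditis elegans was described from 533 peaks, out of 1551 reproducible peaks on the autosomes and 324 on the X chromosome. A peak was a member where its summit, the position of highest signal in the region, had the 5' end of exactly 1 protein-coding gene within 1000 bp. It also had no tRNA, snoRNA or snRNA gene 5' end within 100 bp. The other autosomal peaks were 447 with several coding 5' ends in range, 530 distant from every coding 5' end, and 41 with a single coding 5' end but beside a small RNA gene. The rule is positional and used no signal.

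The series is a chromatin immunoprecipitation with sequencing (ChIP-seq) experiment with 1 group of 2 biological replicates. Both were whole hermaphrodite L1 larvae of strain OP511, genotype unc-119(tm4063) III; wgIs511, collected 6 hours after a synchronization that consisted of bleaching and starvation as L1. The integrated wgIs511 transgene gives ZTF-11 a GFP-FLAG tag at its C terminus, and chromatin sheared by sonication was precipitated with an antibody against GFP. Both replicates came from the same line and both carried the unc-119 mutation and the transgene, so no untagged or wild-type group stood beside them, and peaks from all cell types of the larva were measured together. Region lists give no read depth, and the control alignments were not analysed here. With 1 group no comparison between conditions was possible and no p-value is given. Intervals beside shares are exact Clopper-Pearson 95% intervals, those of differences between shares are Newcombe 95% intervals, and both cover counting error only. Each replicate's own strongest regions, as many as there are reproducible peaks, were put through the same rule, and their values are given as the replicate spread.

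ZTF-11 belongs to the MYT1 family of zinc finger transcription factors, which act in the birth of neurons, and MYT1 family fingers are known to bind short DNA words with an AAGTT core. In this worm many messenger RNAs receive a spliced leader in place of their own first bases, so transcription can begin upstream of the 5' end in the annotation. Gene starts are also crowded: many genes lie in operons or back to back, and an isolated start is one where a peak can be assigned to 1 gene.

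Many of the strongest members shared short words, picked after their windows had been read, that were rare in flanking and background sequence. For that reason 4 of their summit windows (50 bp to either side) are shown. They are printed 5' to 3' along the strand of the gene, from the RefSeq copy of WBcel235 (ce11). They were taken from the strongest members with 2 or more of 3 words and no annotated UTR in the window. Capitals mark CCTCTCGG (word 1), CTAGGCC (word 2) and GTGTACT (word 3) or their reverse complements CCGAGAGG, GGCCTAG and AGTACAC. The thoc-5 window spans chrIII:5349413-5349513, that of cyn-10 chrII:6913454-6913554, that of sluh-7 chrV:10356060-10356160 and that of R166.2 chrII:10538109-10538209, all for genes on the minus strand. All 4 summits lay upstream of the gene.
thoc-5: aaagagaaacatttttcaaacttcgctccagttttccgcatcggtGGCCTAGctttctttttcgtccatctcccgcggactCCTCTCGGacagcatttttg
cyn-10: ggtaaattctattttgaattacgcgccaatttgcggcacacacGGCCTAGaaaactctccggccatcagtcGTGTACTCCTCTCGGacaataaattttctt
sluh-7: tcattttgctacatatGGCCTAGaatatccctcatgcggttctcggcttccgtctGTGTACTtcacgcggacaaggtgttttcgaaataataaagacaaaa
R166.2: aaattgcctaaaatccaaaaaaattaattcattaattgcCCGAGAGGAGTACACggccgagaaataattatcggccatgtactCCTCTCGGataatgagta

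A second set of windows shows 4 motifs that were more frequent at member summits than beside them and, in the last window, AAGTT, which was less frequent there. Capitals mark GAGAGA, a GA repeat, or TCTCTC in the hsp-1 (chrIV:17278538-17278638) and K12H4.5 (chrIII:8043929-8044029) windows. They mark CTGCGTCT, an octamer, in the W06H8.6 (chrV:6227690-6227790) and ntl-11 (chrIV:15471560-15471660) windows. They mark GCGCGC, a GC repeat that is its own reverse complement, in the T07F10.3 (chrV:12870074-12870174) and tos-1 (chrV:9344274-9344374) windows. In the eas-1 window (chrII:4740126-4740226) they mark CCCGCC, the reverse complement of GGCGGG, the GC box bound by SP1-type zinc fingers in vertebrates. The Y56A3A.7 window (chrIII:11946496-11946596) is that of the strongest member, and capitals mark AACTT, the reverse complement of AAGTT. The genes hsp-1, K12H4.5 and eas-1 lie on the plus strand and the others on the minus strand.
hsp-1: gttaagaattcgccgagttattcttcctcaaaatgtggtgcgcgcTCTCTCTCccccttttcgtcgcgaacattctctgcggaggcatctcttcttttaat
K12H4.5: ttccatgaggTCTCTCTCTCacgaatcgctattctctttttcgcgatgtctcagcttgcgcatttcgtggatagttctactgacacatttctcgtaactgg
W06H8.6: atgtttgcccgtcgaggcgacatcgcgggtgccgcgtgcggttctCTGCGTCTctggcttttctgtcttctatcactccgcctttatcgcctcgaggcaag
ntl-11: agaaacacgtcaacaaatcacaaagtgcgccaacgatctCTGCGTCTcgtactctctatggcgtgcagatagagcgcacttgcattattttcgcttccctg
T07F10.3: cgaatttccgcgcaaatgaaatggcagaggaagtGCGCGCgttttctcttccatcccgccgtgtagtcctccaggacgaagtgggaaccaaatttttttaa
tos-1: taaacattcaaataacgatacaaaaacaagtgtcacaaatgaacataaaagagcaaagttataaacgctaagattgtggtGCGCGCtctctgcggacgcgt
eas-1: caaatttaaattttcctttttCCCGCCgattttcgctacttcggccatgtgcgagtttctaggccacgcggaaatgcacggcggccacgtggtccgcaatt
Y56A3A.7: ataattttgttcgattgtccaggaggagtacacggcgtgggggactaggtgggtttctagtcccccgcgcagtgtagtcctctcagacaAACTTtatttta

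Members lay upstream of the gene start far more often than background regions chosen by the same rule. Of the 533 summits, 457 (85.7%, 82.5 to 88.6) were upstream of the coding 5' end, against 1164 of 2875 background regions (40.5%, 38.7 to 42.3), a difference of 45.3 percentage points (41.6 to 48.5). Background regions came from the 11250 weakest of 30000 regions in the authors' list called on both replicates pooled. In the replicates' own strongest regions the upstream share was 84.0% of 532 in replicate 1 and 82.2% of 523 in replicate 2. Members were upstream less often than peaks with several starts (411 of 447, 91.9%; difference -6.21 points, -10.1 to -2.24). In peaks with several starts the nearest start was taken, and that choice can itself move the share.

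The summits gathered at a short distance before the gene. The median distance to the 5' end was 260 bp (quartiles 147 and 452), with medians of 258 bp in replicate 1 and 267 bp in replicate 2 alone, against 483 bp in background regions. The fullest bin of 100 bp was the one from 100 to 200 bp upstream, with 115 members, or 92.4 per Mb of sequence that satisfies the rule. There were 78.0 members per Mb from 200 to 300 bp upstream, 48.02 within the first 100 bp upstream, 13.9 within the first 100 bp downstream and 1.40 from 900 to 1000 bp downstream. Background regions varied between 84.2 and 141 per Mb over the same 20 bins. The stretch from 100 to 400 bp upstream held 50.1% of members (45.8 to 54.4) and 12.5% of background regions (11.3 to 13.8), 37.6 points apart (33.2 to 41.96).

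**Figure D1:**
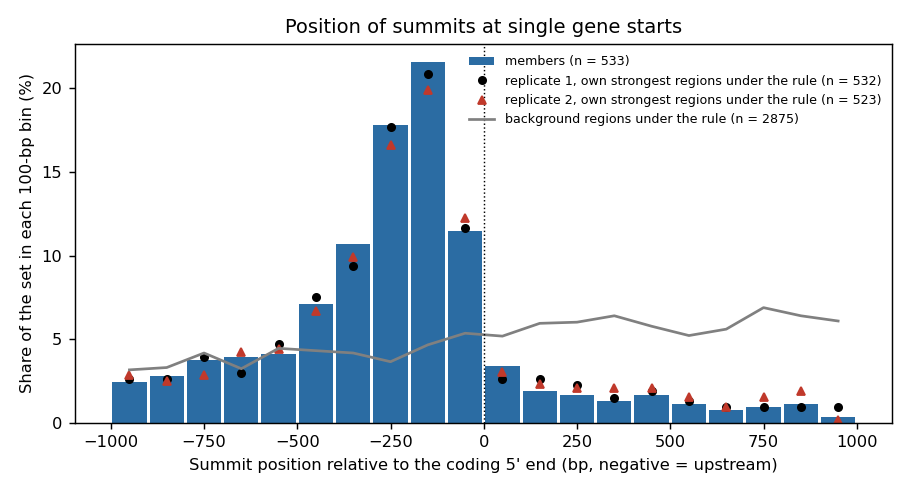
Share of summits (y axis, percent of each set) in bins of 100 bp by position relative to the coding 5' end (x axis, bp, negative upstream). Bars are the 533 members, points the 2 replicates' own strongest regions under the same rule, and the grey line the 2875 background regions; members peak from 100 to 200 bp upstream with 21.6%, where the background line stands at 4.66%.

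Most member summits were in intergenic sequence and few were in coding exons. Intergenic sequence held 393 members (73.7%, 69.8 to 77.4), against 29.3% of background regions (difference 44.4 points, 40.2 to 48.4), 83.0% of peaks with several starts and 42.3% of distant peaks. Introns held 56 members (10.5%), against 26.7% of background regions, 3.58% of peaks with several starts and 35.8% of distant peaks. Coding exons held 10 members (1.88%, 0.903 to 3.42), against 35.8% of background regions. The 5' UTRs held 26 members (4.88%) and 2.68% of background regions, and exons of non-coding genes 38 members (7.13%) and 2.23% of background regions. The 5' end of a gene annotated as ncRNA lay within 100 bp of 30 member summits (5.63%), against 1.46% of background regions and 10.9% of distant peaks.

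Summits close to either side of the 1000 bp limit had a similar range of signals. The members just inside 1000 bp were those of dhs-8 (999 bp upstream, signal 141), C07A9.12 (987 bp upstream, 74.4), otub-2 (977 bp upstream, 203), rsbp-1 (975 bp downstream, 67.3) and eif-3.J (973 bp upstream, 95.3). Just outside lay summits nearest to Y24D9A.7 (1004 bp upstream, 94.5), mtm-3 (1018 bp upstream, 178), let-526 (1020 bp downstream, 177), ben-1 (1020 bp downstream, 162) and mstr-1 (1023 bp upstream, 135). At the other extreme, summits lay 1 bp from the 5' end of sma-2, which encodes a Smad protein of the TGF-beta pathway, 3 bp from that of pcaf-1, a histone acetyltransferase gene, 6 bp from yars-2, 9 bp from T26E3.4 and 10 bp from ints-4, which encodes an Integrator subunit. These 5 had signals of 77.6, 95.8, 69.003, 73.2 and 304 in the order named, so 4 of them were below the median of the members. The yars-2 member ranked 1146 in replicate 1 but 17021 in replicate 2.

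The members varied widely in signal, a value of the authors' peak caller on a scale of its own in each list. In the reproducible list it ran from 66.2 to 954, with a median of 109.6 (quartiles 80.9 and 180.5). The median was 137 in peaks with several starts and 94.4 in distant peaks. Of the members 278 (52.2%) were above the median signal of all reproducible peaks of the series, against 65.1% of peaks with several starts (difference -12.9 points, -18.96 to -6.76) and 39.1% of distant peaks (difference 13.1, 7.12 to 18.95). Upstream members had a median signal of 116.4 and downstream members one of 89.6. In 4 equal bins by signal, from the strongest to the weakest, the upstream share was 91.0%, 88.7%, 85.7% and 77.6%.

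Nearly all members had a matching region in both replicate lists. Each list held 30000 regions, background included, and the weakest match ranked 16269 in replicate 1 and 18011 in replicate 2. A region with its summit within 100 bp was present in both replicate lists for 517 members (97.0%, 95.2 to 98.3), in replicate 1 alone for 11 and in replicate 2 alone for 5. Among the strongest regions of both replicates were 381 members (71.5%, 67.4 to 75.3), against 77.6% of peaks with several starts and 61.7% of distant peaks. The reproducible list was derived from these replicate lists, so these shares are not independent of it. The summits of the 2 replicates lay a median of 15 bp apart. Across the 517 members the 2 signals had a Spearman's rho of 0.71, which is a description over peaks of the same 2 libraries. The strongest members missing from 1 replicate were C09E7.7 (rank 384 in the reproducible list, none in replicate 1), kars-1, a lysyl-tRNA synthetase gene (rank 409, none in replicate 2), and K08F11.1 (rank 484, none in replicate 2).

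**Figure D2:**
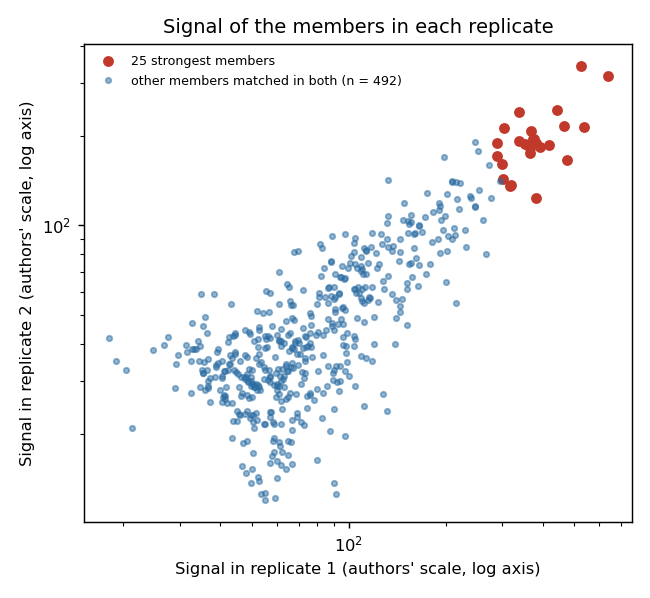
Signal of each member in replicate 1 (x axis) and replicate 2 (y axis), both on log axes and on the authors' scale, for the 517 members matched in both. Red points are the 25 strongest members, which sit at the upper right, and blue points the other 492, which spread more widely at low signal.

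Most of the 25 strongest members lay at genes on none of the gene lists described below. All 25 of the highest signal were among the strongest regions of both replicates, with no rank beyond 64 in replicate 1 or 139 in replicate 2. The strongest summit fell within an intron of Y56A3A.7, 473 bp past its 5' end (chromosome III, 11946428 to 11946667; signal 954). Its signal was 636 in replicate 1 and 317 in replicate 2, ranks 3 and 5. The next was 284 bp upstream of rpl-3, a gene for a protein of the large ribosomal subunit (chromosome III, 3867453 to 3867693; signal 885). It had 527 in replicate 1 and 343 in replicate 2, ranks 7 and 2. The 2 replicates thus placed both peaks in their first 10.

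Others of the 25 were at rpl-35 (signal 671, 442 bp upstream; 442 in replicate 1 and 244 in replicate 2) and eif-3.B (458, 234 bp upstream), which encode a ribosomal protein and a subunit of an initiation factor. The member at sco-1, for a copper chaperone of cytochrome c oxidase, had a signal of 568 (216 bp upstream), and that at cox-5A, for a subunit of the enzyme, 524 (293 bp upstream). Others lay at eel-1, a HECT-type ubiquitin ligase gene (571, 580 bp upstream), cdc-48.1, which encodes the segregase p97 (568, 176 bp upstream), and bag-1, for an Hsp70 cochaperone (546, 168 bp upstream). The cyclophilin gene cyn-10 (576, 139 bp upstream) was also among them. Further ones lay at thoc-5, of the THO complex in mRNA export (579, 62 bp upstream), and sqd-1, an hnRNP gene (456, 308 bp upstream).

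The member at gly-5, which encodes a glycosyltransferase that starts O-linked glycans, differed most in rank between the replicates among these 25. Its signal was 381 in replicate 1 (rank 25) and 123.5 in replicate 2 (rank 139), and its intronic summit was 565 bp past the 5' end. The member at cbp-1, the worm CBP/p300 acetyltransferase gene, lay 892 bp upstream (signal 479; 289 in replicate 1 and 190 in replicate 2). Further members of the 25 were at W04C9.4 (signal 748), T07F10.3 (685), Y50D4C.5 (644), lrpr-1 (607), F13A7.14 (546), Y73B6BL.29 (538), C49A9.10 (531), Y38C1AA.12 (460), C53B4.3 (453) and sluh-7 (444). Of the 25 only Y56A3A.7 and gly-5 had downstream summits.

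The members marked 507 genes, of which 482 had 1 member, 24 had 2 and mnk-1, a MAP kinase-interacting kinase gene, had 3. Among the 25 genes with several members, 10 had summits on both sides of the 5' end. The highest summed signals were at eel-1 (782, summits 216 bp apart), cbp-1 (580, 845 bp apart), rps-24, for a small-subunit ribosomal protein (515, 200 bp apart), lgg-2, an LC3-type autophagy gene (502, 635 bp apart), and pcn-1, for the sliding clamp of replication (472, 201 bp apart). They were followed by sor-1 (359), mnk-1 (353, over 1449 bp), btf-1 (326), the kinesin gene klp-6 (310.0) and lin-28, an RNA-binding timing gene (307, 1415 bp apart). Some of these members were overlapping regions. Those of rps-24 ran from 385219 to 385582 and from 385471 to 385670 on chromosome IV. Those of pcn-1 ran from 4049642 to 4049791 and from 4049730 to 4050093. Such members need not be separate binding sites, and a summed signal can count the same stretch more than once. Member genes had a median span of 2876 bp (quartiles 1515 and 5533), against 2003 bp (1254 and 3512) for autosomal coding genes without a member that had sequence satisfying the rule. The median gap to the next gene upstream was 1359 bp in the member genes and 869 bp in those others, but the rule itself needs isolated starts. A genetic symbol with a hyphen, the mark of a gene that has been named, was carried by 365 of the member genes (72.0%) and by 55.4% of autosomal coding genes.

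The share of genes with a member differed between chromosomes, and so did the side of the gene start on which the members lay. Over the autosomes 507 of 17242 coding genes, or 2.94%, had a member. The share was 3.86% on chromosome I (3.18 to 4.63), 3.22% on II (2.65 to 3.86), 4.32% on III (3.57 to 5.16), 2.53% on IV (2.02 to 3.13) and 1.76% on V (1.42 to 2.17). Per Mb of sequence that satisfies the rule there were 28.4 members on I, 23.5 on II, 32.9 on III, 17.95 on IV and 11.8 on V, so the order was the same.

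The upstream share ran from 74.4% on chromosome I (87 of 117; 65.5 to 82.0) to 96.6% on V (86 of 89; 90.5 to 99.3). That difference of 22.3 points (13.0 to 31.1) had the same direction in each replicate's own regions, with 95.6% on V and 72.6% on I in replicate 1, and 90.1% on V and 72.0% on I in replicate 2. The other chromosomes lay between, at 88.0% on II, 82.1% on III and 91.95% on IV. Background regions under the same rule had upstream shares of 41.7% on I and 42.6% on V. This pair of chromosomes was chosen after the shares had been seen.

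Gene groups were read against the 2.94% of all autosomal coding genes with a member. Of 30 gene lists, 23 had a member and 7 had none, and 107 of the member genes were on a list. The interval of the share lay above 2.94% in 13 lists, below it in 5, and held it in the rest. The 13 above were the pan-neuronal, neurogenesis, DREAM, chromatin, Wnt, cytosolic ribosomal, splicing, respiratory chain, cell cycle, general transcription, ubiquitin, chaperone and vesicle lists. A list whose genes lie close to other starts can hold few members whatever its total of peaks. Lists were made by gene symbol, so a list can hold genes with another role. The highest shares among lists of 20 or more genes were in pan-neuronal genes, chromatin regulators, Wnt genes, ribosomal proteins, splicing genes and the respiratory chain. Several counts depended on the distance. At 2000 bp DREAM genes had 1, splicing genes 5, the respiratory chain 3 and cell cycle genes 5. Pan-neuronal genes then had 8, neurogenesis genes 4, chromatin genes 11, ubiquitin genes 7 and Wnt genes 6. Wnt genes had 2 with 500 bp and 1 with only the peaks above the series' median signal.

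Genes expressed throughout the nervous system had a member at 8 of 36 (22.2%), with a median signal of 122, against 109.6 over all members. These were tba-2, an alpha-tubulin gene (signal 220.0, 135 bp upstream), unc-16, a JIP3-type transport adaptor (185), unc-108, a Rab2 GTPase (141), ehs-1, an Eps15-type endocytic protein (122.99), unc-76, a kinesin-linked axon protein (120), rgef-1 (79.6), unc-11, an AP180 clathrin adaptor (76.2), and egl-21, a neuropeptide-processing carboxypeptidase (75.5). All 8 summits were upstream. The first 5 were within rank 1313 in both replicates, while rgef-1 and egl-21 were at ranks 2991 and 3008 in replicate 2 and unc-11 at rank 2979 in replicate 1. The list gave 6 genes in replicate 2 alone and 8 in replicate 1 alone, and tubulin and Rab genes act in many tissues.

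Genes of neurogenesis and asymmetric division had a member at 3 of 19 (15.8%). They were ceh-20, a PBC homeodomain cofactor (signal 119.3, 826 bp upstream), pig-1, a MELK-type kinase of asymmetric neuroblast division (109, 169 bp upstream), and ztf-11 itself (81.2, 217 bp upstream, rank 1414 in replicate 1 and 1138 in replicate 2). The strain carries ztf-11 sequence in its transgene as well as the endogenous gene, and reads from the 2 copies cannot be told apart. Terminal selectors of neuron identity had no member (0 of 22, which allows up to 15.4%). Neuropeptides (0 of 70, up to 5.13%) and insulin-like peptides (0 of 36, up to 9.74%) had none either. All of these limits lie above the 2.94% of all genes.

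Chromatin regulators and corepressors had a member at 12 of 74 (16.2%; median signal 107), all upstream. The strongest were cbp-1, set-2, an H3K4 methyltransferase gene (signal 271, 264 bp upstream), set-4, an H4K20 methyltransferase gene (238, 300 bp upstream), and swsn-3, of the SWI/SNF remodeller (214, 160 bp upstream). The others were rcor-1, a CoREST corepressor gene, mys-1, swsn-7, mep-1, unc-37, a Groucho corepressor gene, swsn-1, dpy-30 and spr-2. In each replicate alone the list also gave 12 genes. In the list of DREAM, Rb and E2F genes 3 of 14 (21.4%) had a member, lin-9 (303, 160 bp upstream), lin-36 (173) and lin-13 (97.5), all synMuv B genes, known from the repression of vulval fates.

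Ribosomal protein genes had a member at 11 of 76 (14.5%; median signal 155), and all 12 of their summits were upstream, from 159 to 486 bp. After rpl-3 and rpl-35 the strongest were rps-24 (signals 325 and 190.0 at 2 summits) and rpl-24.2 (232, 159 bp upstream). The others, rps-4, rpl-6, rps-21, rpl-14, rpl-32, rps-11 and rpl-38, had signals between 75.2 and 168. The rpl-38 member ranked 1480 in replicate 1 but 8771 in replicate 2. The count of ribosomal genes was 18 with a distance of 500 bp and 5 with 2000 bp, since the distance decides which starts count as isolated. Respiratory chain genes had 5 of 40 (12.5%), which were cox-5A, cyc-1, for cytochrome c1 (189), cox-5B (144), cox-6A (81.0) and cox-4 (74.5). Translation factors had 4 of 40 (10.0%, 2.79 to 23.7, which holds the 2.94% of all genes). They were eif-3.B, eif-3.C (310.5), eif-2Bgamma (158) and eif-3.J (95.3).

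Genes of RNA and cell division also held members. Splicing genes had 8 of 63 (12.7%; median signal 101.4), led by the hnRNP genes hrpu-2 (174), hrpa-1 (150, 46 bp upstream) and hrpu-1 (131, 98 bp downstream) and by snrp-3 (102). The cell cycle and replication list had 8 of 78 (10.3%), led by cdc-48.1, pcn-1 (359.5, 263 bp upstream), cki-2, a CDK inhibitor gene (247, 897 bp upstream), and pole-1, a DNA polymerase epsilon gene (187). Wnt genes had 4 of 26 (15.4%), which were the beta-catenin genes wrm-1 (280, 778 bp upstream) and sys-1 (107), the Frizzled gene lin-17 (93.8) and the Dishevelled gene dsh-2 (71.0). The general transcription list had 6 of 61 (9.84%), led by taf-12 (261) and the Mediator genes mdt-26 (182) and mdt-22 (158). With a distance of 2000 bp its count was 1.

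Protein folding, turnover and sorting genes were measured in the same way. Chaperones and cyclophilins had 6 of 75 (8%), led by cyn-10, hsp-1, the constitutive Hsp70 gene (427, 371 bp upstream), dnj-9 (309) and cyn-1 (150.4). The ubiquitin list had 7 of 64 (10.9%; median signal 90.1), led by usp-39, usp-4 and the conjugating enzyme gene ubc-3. Vesicle genes had 8 of 111 (7.21%), led by vps-4, an ESCRT ATPase gene (177), and the COPII genes sec-24.1 (140, 142 bp upstream) and sec-12 (118). Proteasome subunits had 3 of 33 (9.09%), tRNA synthetases 2 of 32 (6.25%) and mitochondrial ribosomal proteins 3 of 70 (4.29%). In replicate 2 alone proteasome subunits had 1 gene and tRNA synthetases had 0. With a distance of 2000 bp both lists had 0, chaperones and cyclophilins had 2 of 75 and vesicle genes had 4 of 111. The share of all autosomal coding genes was then 2.46%.

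Large gene families outside these groups were almost without members. No chemoreceptor gene of 1252 had one, which with an exact interval allows a share of up to 0.294%, nor did any of 237 C-type lectins (up to 1.54%), 142 collagens (up to 2.56%) or 130 cytochrome P450 and UDP-glucuronosyltransferase genes (up to 2.80%). Nuclear hormone receptors had 1 of 246 (0.407%, 0.0103 to 2.24), nhr-64 with a signal of 74.0. Replicate 2 alone gave 1 chemoreceptor gene and replicate 1 alone gave 1 collagen gene. The nhr-64 member ranked 1460 in replicate 1 and 5836 in replicate 2, and replicate 2 alone gave 0 nuclear hormone receptor genes. Core histones had 1 of 68 (1.47%, 0.0372 to 7.92), an interval that holds the 2.94% of all genes. It was his-72, which encodes the replacement histone H3.3 (123.5, 99 bp upstream).

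Lists of transcription factors and timing genes were small. Homeobox ceh genes had 1 of 45 (2.22%, 0.0562 to 11.8), which was ceh-20. Helix-loop-helix genes had 2 of 19 (10.5%, 1.30 to 33.1), hlh-11 and hlh-30, and zinc finger ztf genes 2 of 22 (9.09%, 1.12 to 29.2), ztf-7 and ztf-11. The hlh-30 member had no match in replicate 2, and replicate 2 alone gave 1 helix-loop-helix gene. Heterochronic genes had 1 of 10 (10.0%, 0.253 to 44.5), which was lin-28. With 500 bp the ceh and heterochronic lists had 0.

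**Figure D3:**
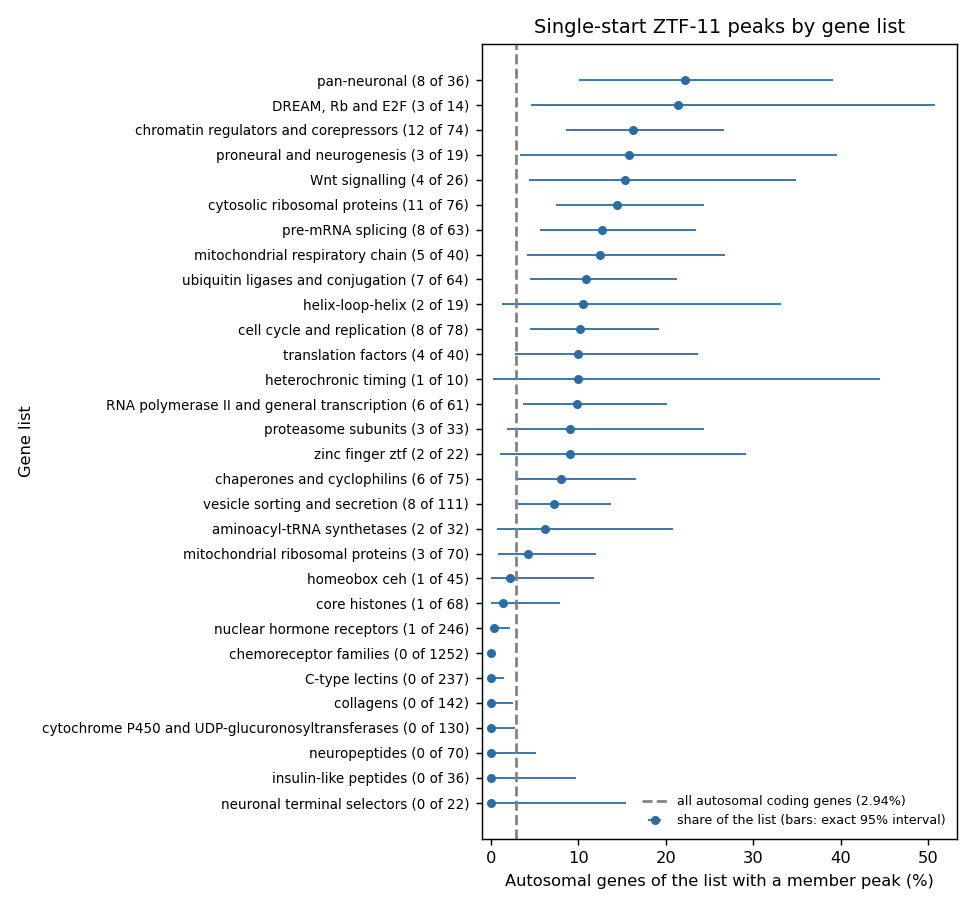
Share of each list's autosomal genes with a member peak (x axis, percent; bars are exact 95% intervals that cover counting error only), with the count beside each list's name (y axis). The dashed line is the 2.94% of all autosomal coding genes; pan-neuronal genes stand highest with 22.2%, and 7 lists stand at 0.

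The summit windows of the members were rich in G and C bases and in a few words. Their G+C content averaged 47.99% ± 7.86 (SD over 533 windows), against 36.5% ± 8.51 and 36.1% ± 8.63 in windows of the same length 400 bp to the left and right, and 38.0% ± 9.03 in background regions. The part of G+C content in the word shares below was not tested. GAGAGA was held by 115 members (21.6%, 18.2 to 25.3), 5.91% of flank windows (difference 15.7 points, 12.02 to 19.6), 5.53% of background regions and 7.08% of the promoters of all autosomal coding genes. A promoter here is a window of the same length centred 200 bp upstream of a 5' end. The share was 20.7% in replicate 1 and 19.5% in replicate 2 alone, and it was higher in distant peaks (33.02%) than in members (difference -11.4 points, -16.7 to -6.10).

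The other frequent words were rarer than GAGAGA, with a higher ratio of member to flank share but a smaller difference in percentage points. CTGCGTCT was held by 52 members (9.76%, 7.37 to 12.6), against 0.281% of flank windows, 0.765% of background regions and 1.25% of promoters. GCGCGC was held by 65 members (12.2%, 9.54 to 15.3), against 0.938% of flanks, 0.835% of background regions and 1.39% of promoters. GGCGGG was held by 53 members (9.94%, 7.54 to 12.8), against 1.501% of flanks, 2.40% of background regions and 2.09% of promoters. The replicates alone gave 10.3% and 9.18% for CTGCGTCT, 9.96% and 11.3% for GCGCGC, and 9.40% and 9.18% for GGCGGG. The words were not particular to isolated starts. Peaks with several starts held CTGCGTCT in 6.26%, GCGCGC in 15.4% and GGCGGG in 7.38%. Distant peaks held them in 12.1%, 8.49% and 5.47%. None of these 4 words was in 314 members (58.9%), and GAGAGA stood alone in 70 and together with CTGCGTCT only in 25. Of the members with GCGCGC, 96.9% were upstream of the gene. By position, GCGCGC was in 15.3% of members within 200 bp upstream, 16.3% of those from 200 to 500 bp, 5.49% of those farther upstream and 2.63% of those downstream.

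Other words were less frequent at the summits than beside them. AAGTT, the core known for MYT1 family fingers, was in 79 members (14.8%, 11.9 to 18.1), against 31.4% of flanks (difference -16.6 points, -20.6 to -12.4), 32.3% of background regions and 34.9% of promoters. TTTCAG, the worm splice acceptor word, was in 7.32% of members, 23.5% of flanks and 17.5% of promoters, and TATAAA, the TATA box, in 3.75% of members, 10.7% of flanks and 13.2% of promoters. Peaks with several starts held AAGTT in 20.1%, TTTCAG in 7.16% and TATAAA in 4.47%. Distant peaks held AAGTT in 10%, TTTCAG in 4.53% and TATAAA in 4.53%. These 3 words are rich in A and T, as are TTTGAA and TTCGAA below, while the windows were rich in G and C. Whether base content played a part in these shares was not tested. TTTGAA or TTCGAA, the CHR element of cell cycle promoters, was in 30.02% of members and 30.1% of flanks (interval of the difference -4.78 to 4.74) and in 35.2% of promoters. CANNTG, the E-box of helix-loop-helix factors, was in 38.5% of members, 29.1% of flanks and 37.04% of background regions. TGACNTCA, a CRE-like word, was in 2.44% of members and 0.938% of flanks.

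**Figure D4:**
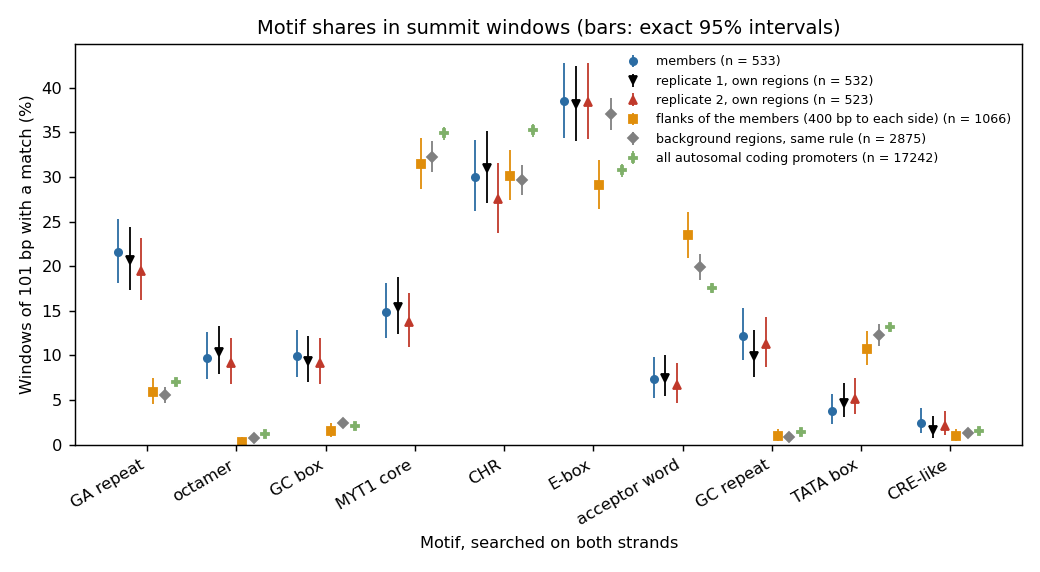
Share of summit windows with a match on either strand (y axis, percent; bars are exact 95% intervals) for 10 motifs by name (x axis) in the members, each replicate's own regions, the flanks, background regions and all promoters. The GA repeat, octamer, GC repeat and GC box stand higher in the members than in the last 3 sets, and the MYT1 core, acceptor word and TATA box stand lower.

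Words of 6 bases were also ranked, with reverse complements merged, and words rich in CG came first. The ranking covered the 688 words held by at least 30 members, or by as many flank windows averaged over the 2 sides. Of the 20 with the highest ratio of member to flank share, 18 held a CG. The highest was ACGGCC, in 41 members (7.69%) and 0.375% of flank windows, followed by GCGGAC, in 46 members (8.63%) and 0.469% of flanks. The lowest was ATATCA, in 6 members (1.13%) and 6.94% of flanks. The GA repeat and the GC box were not evenly divided between the strands. Along the strand of the gene, 42 members held only GAGAGA and 71 only TCTCTC, so members reading GAGAGA made up 37.2% (28.3 to 46.8). For the GC box, 15 members held only GGCGGG and 38 only CCCGCC (28.3%, 16.8 to 42.3). CTGCGTCT showed no such preference (28 members and 23, 54.9%, 40.3 to 68.9).

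The words seen in the strongest members were most frequent in the strongest bin of the members. Word 1, CCTCTCGG, was in 34 members (6.38%), against 1 of 1066 flank windows, 5 of 2875 background regions and 42 of 17242 promoters (0.244%). In the 4 bins of members from the strongest to the weakest it was in 20, 8, 3 and 3. Word 2, CTAGGCC, was in 39 members (7.32%), 0.375% of flanks and 0.754% of promoters, and in 23, 9, 5 and 2 members of the bins. Word 3, GTGTACT, was in 31 members (5.82%), 0.375% of flanks and 0.980% of promoters, and in 18, 8, 4 and 1 members of the bins. Counts over the bins for GAGAGA were 18, 31, 39 and 27, and those for GCGCGC 16, 13, 16 and 20.

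Words 1 to 3 were picked after reading the strongest windows. Their rise with signal and their higher shares than in flanks, background regions and promoters are therefore descriptions of these peaks. Any of the 3 was in 79 members (14.8%), in 14 of the 25 strongest, and in 33.1%, 15.04%, 7.52% and 3.73% of the 4 bins. Members with any of them had a median signal of 209 and those with none one of 102, and 92.4% and 84.6% of these sets were upstream. Their shares in the replicates alone were 5.64% and 6.12% for word 1, 7.33% and 6.31% for word 2, and 5.45% and 6.12% for word 3. They were not particular to isolated starts: word 1 was also in 22 of 447 peaks with several starts (4.92%) and 8 of 530 distant peaks (1.51%), and word 2 in 50 (11.2%) and 10 (1.89%). Word 3 was in 30 (6.71%) and 12 (2.26%) of these sets. Most copies had no summit of a reproducible peak within 50 bp. Of 1039 copies of word 1 on the autosomes, 69 (6.64%) had one, and of 7811 copies of word 2, 1.38% did. Copies in a peak but farther from its summit were not counted. Word 1 read CCTCTCGG on the strand of the gene in 24 members and CCGAGAGG in 9 (72.7%, 54.5 to 86.7).

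**Figure D5:**
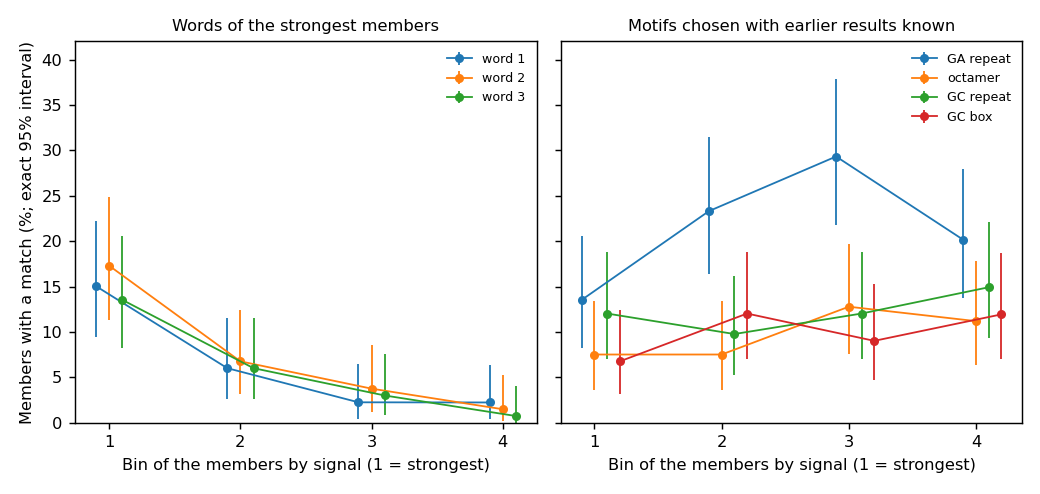
Share of members with a match (y axis, percent; bars are exact 95% intervals) in 4 equal bins of the members by signal (x axis, 1 is the strongest). Left, the 3 words seen in the strongest members stand at 15.04%, 17.3% and 13.5% in the strongest bin and 2.24%, 1.49% and 0.746% in the weakest; right, the GA repeat is at 13.5% in the strongest and 20.1% in the weakest.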

How the data were processed

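Region lists from the 2 replicates, from both pooled and from an irreproducible discovery rate (IDR) step were used on ce11. Per the notes deposited beside the samples, the authors called each list against a control alignment. Which caller and aligner they used, and at which IDR cutoff, is not given in the sources used here. Peak signal as deposited has a scale of its own in each list and served for ranks and descriptions only, and the deposited summit offset gave each summit. Genes came from Ensembl release 115 on WBcel235 and sequence from RefSeq. The rule, shares, intervals and word searches (Python 3.11.15, pandas 2.3.3, scipy 1.17.1) were tested on simulated data. Words were searched on both strands in windows of 50 bp either side of a summit. Replicates are separate biological replicates per the labels. The members, motifs and lists were chosen with earlier results of these data known, and words 1 to 3 after their counts were seen. Named genes are those of the 25 strongest members, the 10 highest sums among genes with several members, the 5 nearest to the 5' end and to either side of 1000 bp, and up to 4 members of each list by signal; further list members named were chosen after their values were seen. 1 of the 25 is not reported here. Alternatives were other distances, gene ends, exclusions, windows and matches, the peaks above the series' median signal and each replicate alone.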

Additional observations from a re-analysis of the deposited data

How the results depend on the processing

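With only the peaks above the series' median signal there were 278 members, 90.3% of them upstream at a median of 267 bp, at 1.57% of genes (2.02% on I, 1.97% on II, 2.31% on III, 1.34% on IV and 0.781% on V). TTTGAA or TTCGAA was then in 35.6% and TGACNTCA in 1.08%, and 7 ribosomal, 7 chromatin and 5 pan-neuronal genes had a member. With a distance of 2000 bp, 77.9% were upstream at a median of 419 bp and 65.9% intergenic, at 2.46% of genes (2.29% on II, 1.36% on V); GAGAGA was in 26.7%, and 5 ribosomal genes and 1 chemoreceptor gene had a member. General transcription genes then fell to 1, and proteasome and tRNA synthetase genes to 0, below the share of all genes. With 500 bp the median was 200 bp, 77.6% were intergenic and 18 ribosomal genes had a member, so the ribosomal count depends on the distance. Transcript starts in place of gene starts gave 65.9% intergenic, and no exclusion of small RNA genes a median of 274 bp. Leaving out a replicate gave 82.2% to 84.0% upstream, medians of 258 to 267 bp, 69.2% to 71.6% intergenic and 0 to 1 chemoreceptor genes. Windows of 25 bp and of 100 bp either side gave, by their length, 12.6% and 32.8% for GAGAGA, 6.00% and 13.3% for CTGCGTCT, 5.82% and 13.9% for GGCGGG, 6.00% and 16.7% for GCGCGC, 6.00% and 31.5% for AAGTT, 7.69% and 51.03% for TTTGAA or TTCGAA, 21.2% and 54.4% for CANNTG, 3.38% and 25.1% for TTTCAG, 1.31% and 15.6% for TATAAA, and 0.750% with 25 bp for TGACNTCA. Matches in both replicates were 85.0% within 50 bp, 99.4% within 200 bp and 71.5% among the strongest regions. With every pooled region below the reproducible peaks as background, the windows held GAGAGA in 7.24% and AAGTT in 29.7%. The cause of these changes was otherwise not tested. No paired analysis was possible because there is 1 group and no comparison between groups.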
